A study of Rattus norvegicus with 12 samples.

Results

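The genes described here make up the presynaptic vesicle and release machinery, in 4 roles: proteins of the synaptic vesicle, the SNARE fusion machinery with its regulators, scaffolds and priming factors of the active zone, and genes of vesicle endocytosis. The list names 36 rat genes, and a member was a listed gene whose RefSeq transcript an array probe targets. Of these, 33 were measured, among 21250 genes and unnamed targets in all: 11 vesicle genes, 9 SNARE genes, 8 active zone genes and 5 endocytosis genes. Syp, Ppfia3 and Sh3gl2 had no matched probe that was well above background throughout at least 1 of the groups, and were not analysed here. A gene with more than 1 probe past that filter, as 10 of the members had, was represented by its brightest one.

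Transmitter release runs as a cycle. Synaptic vesicles, held in clusters by synapsins, dock at the active zone, where RIM, Munc13, Bassoon and Piccolo proteins organise and prime them. The SNAREs syntaxin, SNAP-25 and synaptobrevin then join vesicle and plasma membrane, complexins and tomosyn regulate that step, NSF takes the used SNARE complexes apart, and dynamin, amphiphysin, synaptojanin and AP180 retrieve the membrane. In hippocampal cultures a long block of excitatory transmission is a standard way to induce homeostatic scaling of synapses.

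The study measured total RNA of primary hippocampal cultures on single-colour Agilent arrays of rat transcripts. The neurons came from Wistar rats at embryonic day 18 and were 14 to 15 days in vitro. The 4 groups, of 3 independent cultures each, were cultures blocked for 9 h, non-treated control cultures at 9 h, cultures blocked for 26 h and control cultures at 26 h. Blocked cultures received 50 µM GYKI-52466, an antagonist of AMPA receptors, together with 10 µM MK-801, an antagonist of NMDA receptors, and control cultures received neither. The cultures hold glia besides neurons, and in such bulk RNA fewer cells of a type and less RNA per cell cannot be told apart.

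Levels are given on the log2 scale, as processed spot signal relative to each array's own 75th percentile, so that 0 is the 75th percentile and 1 unit is a doubling. Each array has 42877 spots that are not controls, and 77.6% to 86.8% of them were well above background, and arrays of a group correlated at 0.985 to 0.994 across genes. The design has a limit that decides how the times can be read. Blocked 26 h and control 9 h arrays shared slides scanned on day 1, and blocked 9 h and control 26 h arrays shared slides scanned on day 2. The effect of blockade at 1 time therefore always compared arrays of different days, no within-day value exists for it, and a difference of that effect between times cannot be told apart from a difference between scan days. The average of the effect over both times is balanced over the days, as is the change with culture time averaged over treatment.

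The blockade itself showed in activity-dependent genes. Bdnf, the neurotrophin induced by synaptic activity, was at -2.18, -2.21 and -2.43 in blocked 9 h cultures, against -0.64, -0.42 and -0.42 in control 9 h cultures, and at -2.76, -3.02 and -3.02 in blocked 26 h cultures, against 0.39, 0.78 and 0.26 in control 26 h cultures. The blocked and control arrays did not overlap at either time, and its average change was -2.59 (limma adjusted p = 3.96e-06). The averages of Arc (-2.80), Fos (-1.75), Nr4a1 (-2.56) and Inhba (-2.45) were past the threshold as well, and Npas4 was not well above background on any blocked 26 h array.

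Averaged over both times, blockade changed 3 of the 33 release genes at an adjusted p under 0.05 in limma's moderated test: Unc13b was lower, and Sv2b and Dnm3 were higher. That is 9.09% of the members, against a background of 4.43% of all genes called in either direction, 2.22% higher and 2.21% lower. The other 30 did not pass. The average effects of the members ran between -1.51 and 0.52, 22 of the 33 were above 0, and their median was 0.12, against -0.02 over all genes. By role, the medians were 0.10 for vesicle genes, 0.14 for SNARE genes, 0.03 for active zone genes and 0.24 for endocytosis genes.

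**Figure D1:**
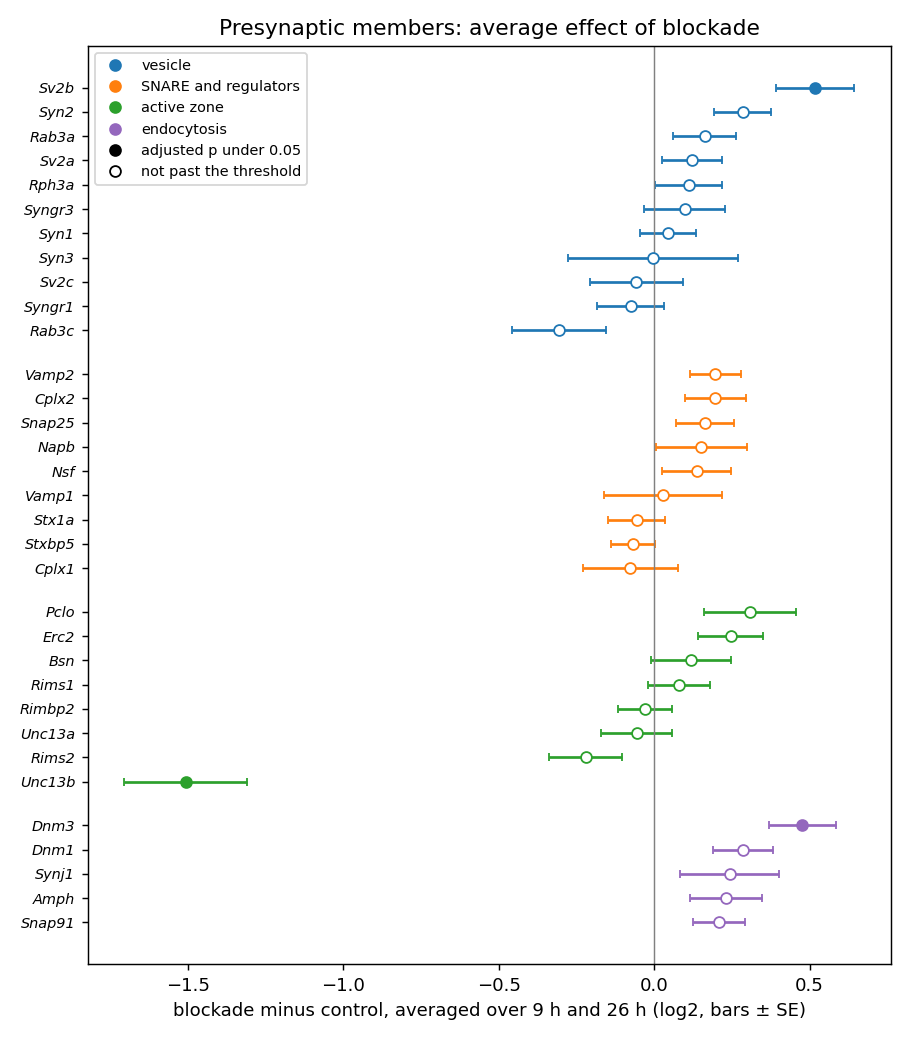
Effect of blockade on each measured release gene, as blocked minus control averaged over 9 h and 26 h on the log2 scale, with bars of ± SE from limma (12 arrays) and genes sorted within their role. Filled points have an adjusted p under 0.05: Unc13b stands apart at -1.51, and Sv2b at 0.52 and Dnm3 at 0.48 are the filled points to the right.

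Unc13b encodes Munc13-2, a vesicle priming factor of the active zone and a paralogue of Unc13a, which encodes Munc13-1, the main priming factor of hippocampal excitatory synapses. Unc13b was at -4.22, -4.42 and -4.06 in blocked 9 h cultures, against -3.23, -2.61 and -2.95 in control 9 h cultures. At 26 h it was at -5.26, -4.95 and -4.66 in blocked cultures, against -3.92, -2.88 and -2.94 in control cultures. Every blocked array lay below every control array of the same time, with gaps of 0.83 at 9 h and 0.74 at 26 h between the nearest arrays. It was the only member with no overlap below its controls at both times (3.03% of the members, against 1.52% of all genes), and no member had no overlap above its controls at both times (also 1.52% of all genes).

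Unc13b was read by 1 probe, so no other probe could be set beside its values. Its average change was -1.51 ± 0.20 (SE, adjusted p = 0.0021), a level 2.84-fold lower under blockade. The change was -1.30 ± 0.28 at 9 h (adjusted p = 0.0097) and -1.71 ± 0.28 at 26 h (adjusted p = 0.0042), and the difference between the times, -0.41 ± 0.40, did not pass (adjusted p = 0.482). Within scan day 1, blocked 26 h minus control 9 h cultures gave -2.02, and within day 2, blocked 9 h minus control 26 h cultures gave -0.99, so that the sign was the same in both days. The call was kept when any single array was left out (-1.67 to -1.42). It was also kept without all arrays of replicate 1 (-1.68, adjusted p = 0.0088) or of replicate 3 (-1.56, adjusted p = 0.04). It was lost when all arrays of replicate 2 were left out (-1.29, adjusted p = 0.199). In that fit 36 of all genes were called on average, against 941 with every array. Unc13a was not called at either time (-0.17 at 9 h and 0.06 at 26 h).

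The sequences around the start of Unc13b and Syn1 are shown because these genes carry the 2 patterns of the data: Unc13b was lower at both times, and Syn1 had opposite signs at the 2 times. RefSeq (GRCr8) gives 2 starts of Unc13b, at chr5:62084787-62085086 and chr5:62245379-62245678, both on the plus strand, and 1 of Syn1 at chrX:3725495-3725794 on the plus strand. Each window runs from upstream of the transcript start into its first bases. Capitals mark the GC box GGGCGG and the cAMP response element TGACGTCA, on either strand, which do not overlap here.
Unc13b start 1: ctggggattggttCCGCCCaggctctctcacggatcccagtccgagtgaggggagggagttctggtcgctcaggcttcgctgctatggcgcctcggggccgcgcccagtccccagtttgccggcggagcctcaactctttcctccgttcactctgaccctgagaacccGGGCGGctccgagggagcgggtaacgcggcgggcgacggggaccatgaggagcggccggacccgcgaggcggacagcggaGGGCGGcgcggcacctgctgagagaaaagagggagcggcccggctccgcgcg
Unc13b start 2: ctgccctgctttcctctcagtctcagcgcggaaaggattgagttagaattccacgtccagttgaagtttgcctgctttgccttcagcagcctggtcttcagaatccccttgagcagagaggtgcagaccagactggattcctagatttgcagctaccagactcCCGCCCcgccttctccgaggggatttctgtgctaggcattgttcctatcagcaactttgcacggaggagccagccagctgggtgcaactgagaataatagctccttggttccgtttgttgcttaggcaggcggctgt
Syn1: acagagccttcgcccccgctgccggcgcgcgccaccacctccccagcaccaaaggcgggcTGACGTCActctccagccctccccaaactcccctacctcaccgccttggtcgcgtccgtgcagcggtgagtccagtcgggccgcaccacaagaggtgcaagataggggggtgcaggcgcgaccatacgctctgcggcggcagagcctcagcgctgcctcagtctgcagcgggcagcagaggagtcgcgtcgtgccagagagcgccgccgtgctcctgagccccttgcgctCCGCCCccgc
The first window of Unc13b holds 3 GC boxes and the second holds 1, and neither holds TGACGTCA. The window of Syn1 holds 1 cAMP response element and 1 GC box. Of the 33 members, 26 had a promoter in the reference table. With 1 window per gene, the one listed first, 20 of these (76.9%) held GGGCGG, against 34.9% of the 27457 genes of the table, and 2 (7.69%, Syn1 and Vamp1) held TGACGTCA, against 1.91%. The TATA box TATAAA was in 0 of 26, against 14.3%, and the EGR site GCGTGGGCG was in 1 (3.85%, Vamp2), against 0.59%. The genes of the table include ones not measured here, whereas the 26 members all had a probe above background. These are matches of letters in a window, given as a description.

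Sv2b encodes a vesicle membrane glycoprotein of the SV2 family. It was at -3.24, -3.32 and -3.59 in blocked 9 h cultures, against -4.11, -3.96 and -4.19 in control 9 h cultures, and at -2.92, -3.28 and -3.53 in blocked 26 h cultures, against -3.37, -3.49 and -3.85 in control 26 h cultures. Blocked arrays were all above control arrays at 9 h, and the groups overlapped at 26 h. The average change was 0.52 ± 0.13 (SE, adjusted p = 0.0458), a 1.43-fold higher level, with 0.70 at 9 h (adjusted p = 0.0192) and 0.33 at 26 h (adjusted p = 0.23). The within-day values were 0.85 on day 1 and 0.19 on day 2. The average call was kept without blocked 9 h replicate 3, control 26 h replicate 1 or blocked 26 h replicate 3, and was lost without any of the other 9 arrays (adjusted p of 0.0685 to 0.115). With the replicate number as a block, the change at 26 h passed as well (adjusted p = 0.0422).

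Dnm3 encodes dynamin 3, of the GTPase family that cuts vesicles from the plasma membrane. It was at -2.50, -2.66 and -2.86 in blocked 9 h cultures, against -2.78, -2.84 and -2.90 in control 9 h cultures, and at -1.68, -2.14 and -2.08 in blocked 26 h cultures, against -2.56, -2.77 and -2.95 in control 26 h cultures. The groups overlapped at 9 h and were apart at 26 h, where blocked cultures were higher. The average change was 0.48 ± 0.11 (SE, adjusted p = 0.033), a 1.39-fold higher level, with 0.16 at 9 h (adjusted p = 0.498) and 0.79 at 26 h (adjusted p = 0.0081). The within-day values were 0.87 on day 1 and 0.08 on day 2. The average call was kept without blocked 9 h replicate 3, control 26 h replicate 1 or blocked 26 h replicate 2, and was lost without any of the other 9 arrays (adjusted p of 0.0505 to 0.0853). The other probe of Dnm3 gave 0.05 on average, with 0.41 at 9 h and -0.31 at 26 h. In a limma fit to every kept probe, that probe passed at 9 h (adjusted p = 0.0403) and not at 26 h (adjusted p = 0.114). The mean of both probes did not pass on average (0.26, adjusted p = 0.0613).

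**Figure D2:**
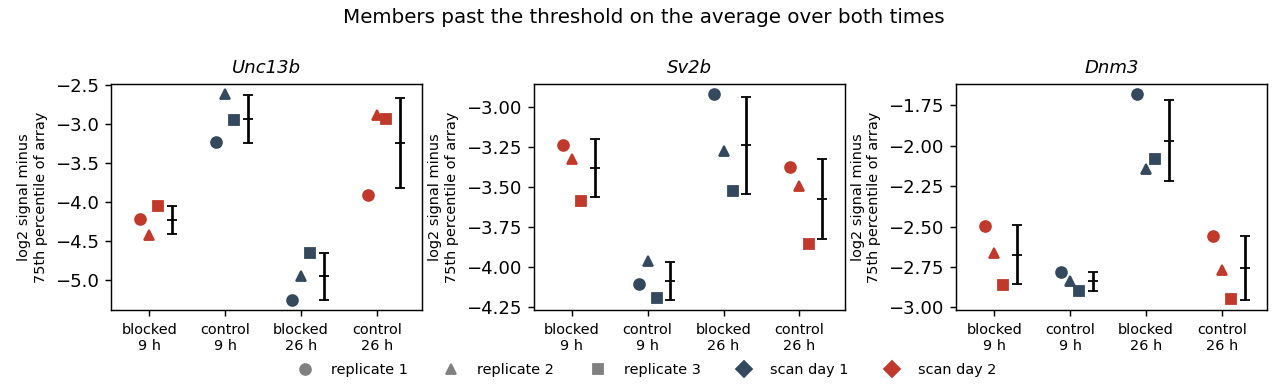
Level of the 3 genes past the threshold on the average, in each of the 12 arrays (log2 signal less the 75th percentile of its array), with blocked cultures left of their controls, marker shapes for replicates, colours for scan days, and bars of mean ± SD (n = 3). Unc13b is lower in all blocked cultures than in the controls of the same time, Sv2b is apart from its controls at 9 h and Dnm3 at 26 h.

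The replicate number was also fitted as a block, because same-numbered blocked and control arrays correlated at 0.17 to 0.65 after removal of group means. The labels do not say that a number marks a shared preparation. With this block, 5 members were higher on average (15.2%, against 6.14% of all genes in that fit) and 1 lower (3.03%, against 6.98%). The added ones were Syn2 (0.29, adjusted p = 0.042), a synapsin, Vamp2 (0.20, adjusted p = 0.0381), the vesicle SNARE synaptobrevin 2, and Synj1 (0.24, adjusted p = 0.0367), the phosphatase synaptojanin that strips clathrin coats. Without the block their adjusted p-values were 0.133, 0.258 and 0.538, in that order.

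At 9 h, 11 members were higher in blocked than in control cultures (33.3%, against 11.4% of all genes) and 1, Unc13b, was lower (3.03%, against 9.63%), where 21.1% of all genes were called in either direction. The higher ones were 5 vesicle genes (Syn1, Syn2, Sv2a, Sv2b and the vesicle GTPase Rab3a), 3 SNARE genes (Snap25, Vamp2 and Nsf), 1 active zone gene (Rims1, the scaffold RIM1) and 2 endocytosis genes (Snap91, which encodes AP180, and Dnm1, the main neuronal dynamin). The median of the members was 0.30, against 0.02 over all genes, with 0.30 for vesicle, 0.40 for SNARE, -0.04 for active zone and 0.46 for endocytosis genes. All of these values compare day 2 with day 1. The count of 11 was 4 without control 9 h replicate 3 (12.1%, against 11.1% of all genes in that fit). It was 4 without blocked 9 h replicate 1 (12.1%, against 6.81%) and 5 without blocked 9 h replicate 2 (15.2%, against 7.7%). Without any other single array it was 8 to 13. Syn1, Snap25, Snap91, Dnm1 and Unc13b kept their calls without any single array. With the replicate block, Stx1a, Cplx2, Rimbp2 and Amph were also higher (15 in all, 45.5%, against 18.4% of all genes in that fit) and Rab3c was also lower (-0.62, adjusted p = 0.0087; 2 lower in all, 6.06%, against 17.4%). Stx1a was saturated on 2 of 3 blocked and 1 of 3 control arrays at 9 h.

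Dnm1 had the largest rise at 9 h. It was at -0.26, -0.49 and -0.32 in blocked 9 h cultures, against -1.61, -1.27 and -1.56 in control 9 h cultures, a change of 1.12 ± 0.14 (SE, adjusted p = 8.7e-04). Syn1, synapsin I, was at -0.05, 0.04 and 0.03 in blocked 9 h cultures, against -1.11, -0.82 and -0.95 in control 9 h cultures, a change of 0.97 ± 0.13 (adjusted p = 0.0013). Neither gene's groups overlapped. Snap91 was at -0.86, -0.94 and -1.11 in blocked 9 h cultures, against -1.76, -1.62 and -1.70 in control 9 h cultures, a change of 0.72 ± 0.12 (adjusted p = 0.0029), again with no overlap. The other called rises were Sv2b at 0.70, Snap25 at 0.61, Sv2a at 0.55, Nsf at 0.55, Syn2 at 0.54, Rab3a at 0.45, Rims1 at 0.45 and Vamp2 at 0.45.

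At 26 h, 2 members were higher in blocked than in control cultures (6.06%, against 6.85% of all genes) and 6 were lower (18.2%, against 9.44%), where 16.3% of all genes were called in either direction. The higher ones were Erc2 and Dnm3, and the lower ones Unc13b, Syn1, Dnm1, Stx1a (syntaxin 1A, the SNARE of the plasma membrane), Rimbp2 (a RIM-binding protein) and Stxbp5 (tomosyn, an inhibitor of SNARE assembly). The median of the members was -0.07, against -0.05 over all genes. These values compare day 1 with day 2. The count of 6 lower members was 3 without control 26 h replicate 1 (9.09%, against 9.2% of all genes in that fit). It was 2 (6.06%) without control 26 h replicate 2 (against 3.95%) or control 26 h replicate 3 (against 5.25%). It was also 2 without blocked 26 h replicate 2 (against 4.75%) or blocked 26 h replicate 3 (against 6.32%). Syn1, Unc13b, Erc2 and Dnm3 kept their calls without any single array. With the replicate block 10 were lower (30.3%, against 18.4% of all genes in that fit), adding Sv2a, Sv2c, Snap25 and Snap91, and 4 were higher (12.1%, against 13.3%), adding Sv2b and Synj1 (0.42, adjusted p = 0.0086).

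Syn1 was at -0.85, -1.02 and -0.94 in blocked 26 h cultures, against -0.32, 0.13 and 0.03 in control 26 h cultures, a change of -0.88 ± 0.13 (SE, adjusted p = 0.0027). Dnm1 was at -1.07, -1.47 and -1.49 in blocked 26 h cultures, against -0.82, -0.78 and -0.78 in control 26 h cultures, a change of -0.55 ± 0.14 (adjusted p = 0.0223). Both groups were apart for both genes. Erc2, an active zone scaffold of the ELKS family, was at -1.36, -1.51 and -1.63 in blocked 26 h cultures, against -2.06, -2.37 and -2.48 in control 26 h cultures, a change of 0.80 ± 0.15 (adjusted p = 0.0067). Its other probe gave -0.37 at 26 h and 0.60 at 9 h, opposite in sign to the probe used at both times. In a limma fit to every kept probe, that other probe passed at 9 h (adjusted p = 0.0143) and not at 26 h (adjusted p = 0.1). The falls of Stx1a (-0.52), Rimbp2 (-0.41) and Stxbp5 (-0.36) had adjusted p-values of 0.0244, 0.0477 and 0.0351, and Stx1a was saturated on 1 of 3 blocked and 2 of 3 control arrays at 26 h.

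**Figure D3:**
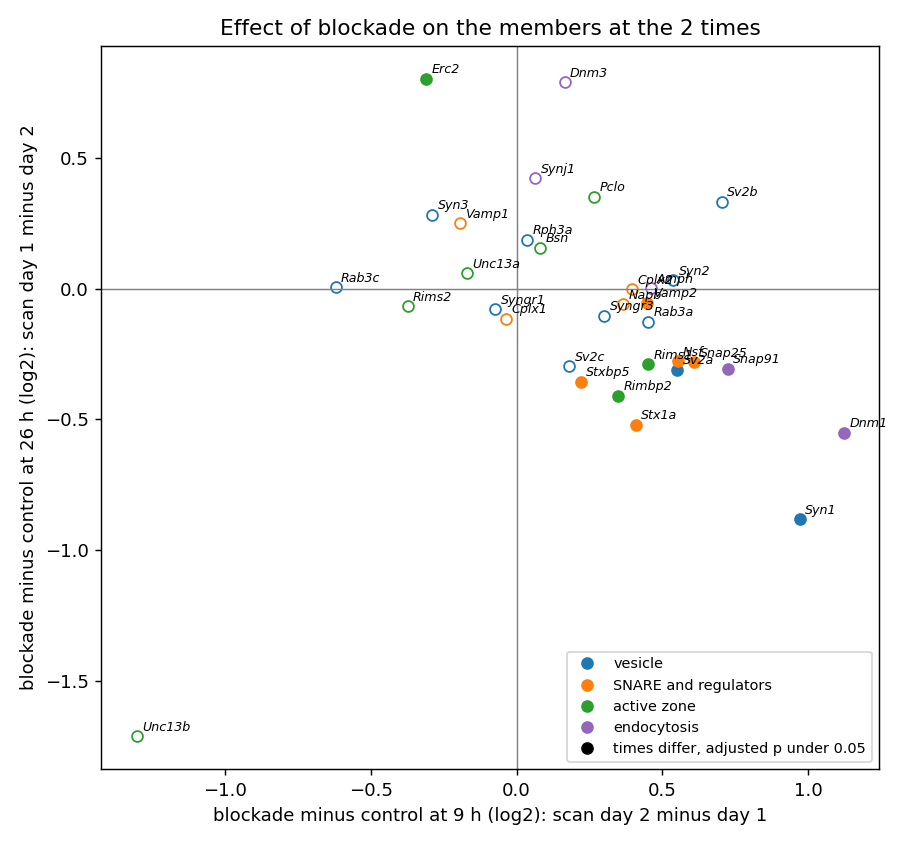
Effect of blockade on each measured release gene at 26 h (vertical) against 9 h (horizontal), both as blocked minus control on the log2 scale, coloured by role. Filled points are the 12 genes whose effect differed between the times at an adjusted p under 0.05, and since 9 h compares scan day 2 with day 1 and 26 h the reverse, points at lower right are higher on day 2; Unc13b alone lies far into the lower left.

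In 10 members (30.3%, against 9.65% of all genes), every blocked array lay above every control array at 9 h and below at 26 h. They were Syn1, Sv2a, Snap25, Stx1a, Stxbp5, Nsf, Rims1, Rimbp2, Snap91 and Dnm1. Of these, Syn1 and Dnm1 were called in both directions (6.06% of the members, against 4.55%). Erc2 had the reverse order without overlap on its brightest probe, below its controls at 9 h and above them at 26 h. The gaps between its nearest arrays were -0.02 at 9 h and 0.42 at 26 h. The effect at 26 h minus the effect at 9 h passed for 12 members (36.4%, against 28.6% of all genes), 11 of them lower (33.3%, against 15.8%) and Erc2 higher (3.03%, against 12.7%). It was -1.85 ± 0.18 for Syn1 (SE, adjusted p = 2.0e-04), -1.67 ± 0.19 for Dnm1 (adjusted p = 3.6e-04) and 1.11 ± 0.21 for Erc2 (adjusted p = 0.0034). For Erc2 the other probe gave -0.98, opposite in sign, and the mean of both probes gave 0.07 and did not pass (adjusted p = 0.781). The value of Stx1a, -0.93, comes from arrays of which some were saturated in every group. The 11 lower members became 7 with slide as a random block (21.2%, against 9.33% of all genes in that fit), where 3528 genes were called in all. Without replicate 2, 0 members passed, where 3 genes did. With the replicate block 4 members were higher (12.1%, against 19.9% of all genes in that fit) and 14 were lower (42.4%, against 24.8%). Without the block, the median of this difference was -0.41 over the members, against -0.08 over all genes. In each of these 12 genes this is also the scan-day contrast, and the 2 cannot be told apart.

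Values within a scan day exist for these 12 genes only between cultures that differ in culture time as well as treatment, and they were not tested. Within day 1, blocked 26 h minus control 9 h cultures ran between -0.13 and 0.54, with a median of 0.17. Erc2 was highest at 0.54, followed by Snap91 at 0.38 and Nsf at 0.34, and Syn1 was at 0.02. Within day 2, blocked 9 h minus control 26 h cultures ran between -0.19 for Rimbp2 and 0.44 for Dnm1, with a median of 0.02. Syn1 was at 0.07, Erc2 at -0.045 and Snap91 at 0.04 there. For Snap25, the plasma membrane SNARE SNAP-25, the levels were 3.28, 3.12 and 2.84 in blocked 9 h cultures and 2.58, 2.39 and 2.44 in control 9 h cultures, against 2.69, 2.73 and 2.59 in blocked 26 h cultures and 3.08, 3.02 and 2.76 in control 26 h cultures. The 6 day 2 arrays lay above all 6 day 1 arrays.

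**Figure D4:**
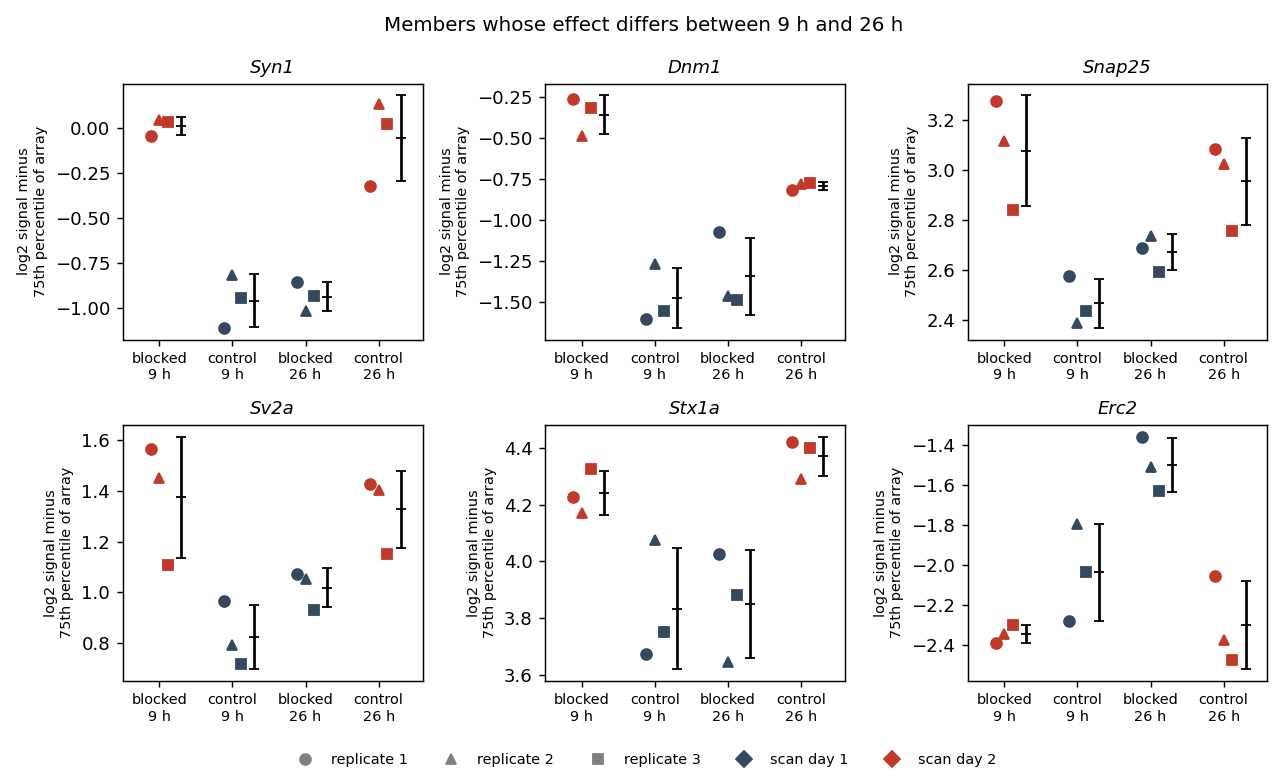
Level in each of the 12 arrays (log2 signal less the 75th percentile of its array) of 6 genes whose blockade effect differed between 9 h and 26 h, with blocked cultures left of their controls, marker shapes for replicates, colours for scan days, and bars of mean ± SD (n = 3). In Syn1, Dnm1, Snap25 and Stx1a all day 2 arrays lie above all day 1 arrays, whichever group they belong to.

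With culture time, as 26 h minus 9 h averaged over treatment, 2 members were higher (6.06%, against 4.92% of all genes) and 0 were lower in limma (against 7.75%), where 12.7% of all genes were called in either direction. Of the 33, 8 had an unadjusted p under 0.05. Unc13a was at -1.83, -2.18 and -2.10 in blocked 26 h and -1.92, -2.15 and -2.21 in control 26 h cultures, against -2.59, -2.46 and -2.61 in blocked 9 h and -2.70, -2.07 and -2.38 in control 9 h cultures. Control 9 h replicate 2 lay among the 26 h arrays, and the change was 0.41 ± 0.12 (SE, adjusted p = 0.045). Dnm3 had a change of 0.39 ± 0.11 (adjusted p = 0.0383). Its control arrays overlapped between 26 h (-2.56, -2.77 and -2.95) and 9 h (-2.78, -2.84 and -2.90). Its blocked 26 h arrays (-1.68, -2.14 and -2.08) lay above all blocked 9 h arrays (-2.50, -2.66 and -2.86). The other Dnm3 probe gave 0.19 over time (adjusted p = 0.194 in a limma fit to every kept probe). The Unc13a call was kept in 1 of the 12 omissions of a single array and the Dnm3 call in 3.

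The 10 members with a pair of probes show how far a gene's value depends on the probe. The probes had the same sign in 7 genes on average, 6 at 9 h and 4 at 26 h. For Synj1 the brightest probe gave 0.06 at 9 h and 0.42 at 26 h, and the other gave 0.87 and -0.18. Both probes of Snap25 were above 0 at 9 h (0.61 and 0.48) and below 0 at 26 h (-0.28 and -0.10), and so were both of Rimbp2 (0.35 and 0.10 at 9 h, -0.41 and -0.55 at 26 h). Both probes of Pclo, the Piccolo scaffold, were above 0 at both times (0.27 and 0.14 at 9 h, 0.35 and 0.21 at 26 h), without passing. Which transcripts each probe reads was not tested.

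**Figure D5:**
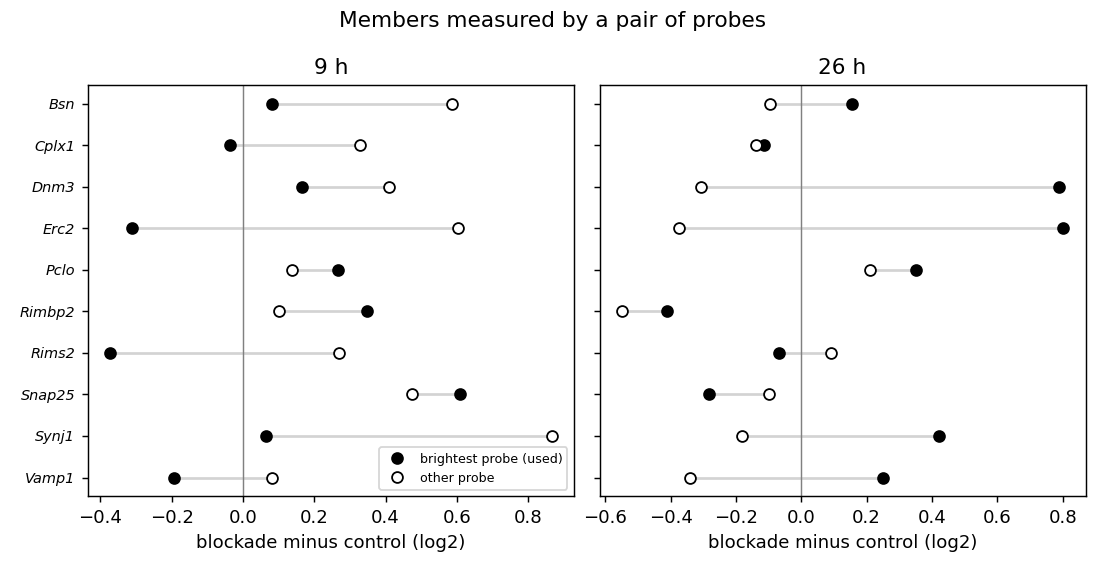
Effect of blockade (blocked minus control, log2) at 9 h and 26 h for the 10 release genes with a pair of probes, with the brightest probe used in the text as a filled point and the other as an open point. The probes of Dnm3, Erc2 and Synj1 lie on opposite sides of 0 at 26 h, and those of Snap25, Rimbp2 and Pclo on the same side at both times; the brightest probe of Cplx1 was saturated on all blocked 26 h arrays.

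The remaining members, each on its brightest probe, did not pass in any of these comparisons without the block. Among vesicle genes they were Syn3, Sv2c, Syngr1, Syngr3, Rab3c and the Rab3 effector Rph3a, with averages between -0.31 for Rab3c and 0.11 for Rph3a. Among SNARE genes they were Vamp1, the complexins Cplx1 and Cplx2 and the SNAP protein Napb, with averages of 0.03 for Vamp1, 0.20 for Cplx2 and 0.15 for Napb. Among active zone genes they were Rims2, Bsn and Pclo, with averages of -0.22, 0.12 and 0.31, and among endocytosis genes Amph and Synj1, with 0.23 and 0.24. Bsn, the Bassoon scaffold, was at 3.22, 2.89 and 2.93 in blocked 9 h cultures, against 2.97, 3.06 and 2.77 in control 9 h cultures, on its brightest probe. In a limma fit to every kept probe, the other probe of Bsn passed at 9 h (0.59, adjusted p = 0.0433). That of Synj1 passed there as well (0.87, adjusted p = 0.0077). Syn3 was near the background of the array, well above it on 2 of 3 control 9 h arrays, and Cplx1 was saturated on all 3 blocked 26 h arrays, so no fold is given for it there.

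Of 78 other presynaptic genes on the comparison lists, 68 were measured, and 1 was higher and none lower on average (1.47% called, against 4.43%); 15 had an unadjusted p under 0.05. The called gene was Rab3d, a further Rab3 GTPase. It was at -1.62, -1.84 and -2.08 in blocked 9 h cultures, against -2.62, -2.79 and -3.07 in control 9 h cultures, and at -1.60, -1.52 and -1.72 in blocked 26 h cultures, against -2.0, -1.82 and -1.92 in control 26 h cultures. Blocked arrays were above control arrays at both times without overlap, and the average change was 0.64 ± 0.10 (SE, adjusted p = 0.0066). At 9 h, 20 of the 68 were higher (29.4%, against 11.4% of all genes) and 2 lower (2.94%, against 9.63%). At 26 h, 3 were higher (4.41%, against 6.85%) and 15 lower (22.1%, against 9.44%). With the replicate block 6 were higher and 4 lower on average, where 6.14% and 6.98% of all genes were; the lower ones were Rab27b, Slc6a17, Rab3gap2 and Synj2. Without the block, the median of the 68 genes was 0.17 at 9 h and -0.18 at 26 h. Of the 12 subunits of the proton pump that acidifies vesicles, 0 were called on average (2 had an unadjusted p under 0.05), 4 were higher (33.3%) and 1 lower (8.33%) at 9 h, and 2 were higher (16.7%) and 3 lower (25.0%) at 26 h, to be read against the same shares of all genes. With the block 1 subunit, Atp6v1g2, was higher on average.

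Markers of the cell types in the cultures were set beside these values. None of 12 neuronal markers was called on average (median 0.06, 5 with an unadjusted p under 0.05). Their mean level ran between 1.68 and 1.74 in blocked 9 h and 1.44 and 1.86 in control 9 h cultures. At 26 h it ran between 1.69 and 1.70 in blocked and 1.63 and 1.86 in control cultures. Uchl1 was saturated on every array. Mapt and Stmn2 were saturated on all 3 blocked 26 h arrays and on 2 of 3 arrays of each other group. None of 11 astrocyte markers was called in limma (median -0.20, 1 of 11 above 0, 3 with an unadjusted p under 0.05). No microglial marker of 12 was called (median 0.06, 0 with an unadjusted p under 0.05). Lower were 1 of 12 oligodendrocyte markers (8.33%, median -0.24) and 1 of 10 vascular and meningeal markers (10%, median -0.18), against 2.21% of all genes. With the replicate block more passed on average, where 6.98% of all genes were lower and 6.14% higher. Of 11 astrocyte markers, 3 were lower (Fgfr3 at -0.67, Slc7a10 at -0.43 and Aqp4 at -0.21). Aqp4 was saturated on 1 of 3 control 9 h and 2 of 3 blocked 26 h arrays. Of 12 oligodendrocyte markers, 5 were lower (Cnp, Olig2, Sox10, Pdgfra and Cspg4). In that fit 2 neuronal markers were higher (Elavl3 and Elavl4) and 2 lower (Nefl and Nefm), 1 vascular marker was higher and 2 were lower, and 0 of 12 microglial markers passed. The mean level of the astrocyte markers ran between 0.51 and 1.15 in blocked 9 h and 0.72 and 1.35 in control 9 h cultures. At 26 h it ran between 0.46 and 1.36 in blocked and 0.72 and 1.54 in control cultures. Among them Aldoc was saturated on every array, and Slc1a3 on all 3 control 9 h and 2 of 3 blocked 26 h arrays. The oligodendrocyte markers ran between -2.13 and -1.52 in blocked 9 h, -2.09 and -1.20 in control 9 h, -2.18 and -1.12 in blocked 26 h and -1.87 and -0.78 in control 26 h cultures, and the vascular and meningeal markers between -4.02 and -1.86 over all arrays. The level of the microglial markers lay between -5.09 and -4.33 over all arrays, and Itgam was not well above background on any blocked 26 h array. The part of these cells in the changes of the release genes was not tested.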

How the data were processed

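Total RNA (200 ng per culture) was labelled with Cy3, per the labels' protocols, with 1 array for each of the 12 cultures. The deposited intensity values came from Agilent Feature Extraction 10.5.1.1, per the file headers, and the processed signal among them is background-corrected within the array. A second deposited table gives log2 values, which regress on log2 of the processed signal with a slope of 1.00 in each column, so that they differ from it by a constant per array; their column medians are 7.57 to 7.75, and the rule behind the constants is not given in the sources used here.

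Here, the processed signal was taken to log2 and each array's 75th percentile was subtracted. Control spots and 3751 outlier spot values were left out, spots of a probe were averaged (49 probe values had only outlier spots and were kept), and probes had to be well above background throughout at least 1 of the groups, which left 24034 of 30367. Of all 30367 probes, before this filter, 18004 matched a gene by RefSeq accession and 12363 did not. Unmatched probes that passed the filter were tested under their own name, with the brightest probe per name. Of the 21250 tested, 12359 have a symbol. The headers name build rn4 and the reference table GRCr8, so coordinates are given only with sequences of the latter.

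One model with a mean per group was fitted with limma 3.58.1 (lmFit, eBayes) in R 4.3.3 to all genes, two-sided, with Benjamini-Hochberg adjustment over the 21250 and a threshold of 0.05. It was tested on simulated data with 100 genes changed at each of 2 sizes. For the effect averaged over both times, it recovered 38% of changes of 0.5 and 70% of changes of 1 on the log2 scale. The number of arrays limits precision: the median SE was 0.17 at 1 time and 0.12 on average, and the median SD within groups 0.21. The labels call the replicates independent cultures but do not say that a number marks a shared preparation. After removal of group means, same-numbered blocked and control arrays correlated at 0.17 to 0.65 across genes, over the limit of 0.1, so the replicate number was also fitted as a block. Alternatives (for the difference between times, chosen after seeing the data) were the normalization, background correction, deposited matrix, filter, probe rule, outlier spots, array weights, slide and omitted arrays.

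The members, roles, comparison lists and motifs were chosen with earlier results of these data known. All members may be named; values per array are given for those past the threshold on the average, and for up to 3 rises and 3 falls past it at 9 h, at 26 h and over time. Snap25 and Bsn were added to these after their values were seen, as were the probe pairs named; Rab3d was the only other presynaptic gene called on average without the block.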

Additional observations from a re-analysis of the deposited data

Results flagged for a closer look

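The effect of blockade differed between the times, tested as the effect at 26 h minus that at 9 h in limma (adjusted p under 0.05), in the release genes Syn1 (-1.85), Dnm1 (-1.67), Snap91 (-1.03), Stx1a (-0.93), Snap25 (-0.89), Sv2a (-0.86), Nsf (-0.83), Rimbp2 (-0.76), Rims1 (-0.74), Stxbp5 (-0.58), Vamp2 (-0.50) and Erc2 (1.11). It also differed in Rab3d (-0.68), Bdnf (-1.63), Arc (-1.94) and Nr4a1 (-2.73). The effect on Rab3d was 0.98 at 9 h and 0.30 at 26 h, and the blocked arrays of Bdnf, Arc and Nr4a1 lay below their controls without overlap at both times. Erc2's other probe gave -0.98, and the mean of its probes did not pass (0.07, adjusted p = 0.781). Stx1a was saturated on 2 of 3 blocked and 1 of 3 control arrays at 9 h, and on 1 of 3 blocked and 2 of 3 control arrays at 26 h. Vamp2 kept its call in 3 of the 12 omissions of a single array and under 8 of the 11 alternatives. Each of these differences equals a contrast of scan days, which cannot be told apart from a difference between times.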

How the results depend on the processing

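No alternative reversed a called direction. Genes called over all 21250, with 941 on average, 4474 at 9 h, 3461 at 26 h and 2692 over culture time, became 3156 on average, 10040 at 26 h and 5164 over time with array weights. With the replicate block they became 2788, 7616, 6720 and 5677, and with slide as a random block (correlation 0.50) 2988 on average and 6024 over time. Shares in brackets are of the members tested, against all genes in the same fit and direction. Release genes higher on average (2) became 0 with quantile normalization, median scaling, the deposited matrix or no filter (0%, against 1.28% to 2.39%). They became 1 with normexp (3.03%, against 1.7%) or the mean of probes (3.03%, against 2.15%). The count was 5 with the replicate block (15.2%, against 6.14%) and 6 with slide (18.2%, against 7.23%). At 9 h the 11 higher became 5 with median scaling (15.2%, against 9.43%). The 1 lower became 4 with array weights (12.1%, against 15.9%) and 2 with the replicate block (6.06%, against 17.4%) or slide (6.06%, against 8.97%). At 26 h the 2 higher became 0 with the mean of probes (0%, against 6.03%). They became 5 with array weights (15.2%, against 21.1%) and 4 with the replicate block (12.1%, against 13.3%). The 6 lower became 2 with median scaling (6.06%, against 7.44%) or the deposited matrix (6.06%, against 7.47%). They became 11 with array weights (33.3%, against 26.1%) and 10 with the replicate block (30.3%, against 18.4%). Over time the 2 higher became 1 with quantile (3.03%, against 6.51%) or normexp (3.03%, against 4.26%). They became 0 with median scaling, the matrix or no filter (0%, against 2.81% to 5.34%) and 4 with array weights (12.1%, against 9.97%). The count was 7 with the replicate block (21.2%, against 11.8%) and 8 with slide (24.2%, against 12.2%). The 0 lower became 2 with the block (6.06%, against 15%) and 1 with slide (3.03%, against 16.1%). For the difference between times, whose alternatives were chosen after seeing the data, the 6071 genes became 9517 with array weights, 9501 with the replicate block and 3528 with slide. The 1 higher member became 2 with normexp (6.06%, against 11.1%) or the filter on all 12 arrays (6.25%, against 14.8%). It became 0 with the mean of probes (0%, against 11.5%) and 4 with array weights (12.1%, against 21.9%) or the block (12.1%, against 19.9%). The 11 lower became 7 with slide (21.2%, against 9.33%). The time contrast's numbers do not pair all cultures (control 26 h and 9 h replicate 2 correlated at -0.04). The causes were not tested. Normexp moved the median difference between times over all genes to -0.18, against -0.08.

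Leaving out arrays, singly or by replicate number, gave 36 to 980 genes on average, 0 to 4647 at 9 h, 20 to 4468 at 26 h, 164 to 2571 over time and 3 to 6181 for the difference, which held 0 to 2 higher and 0 to 15 lower members. Release genes higher ran at 0 to 2 on average, 0 to 13 at 9 h, 0 to 2 at 26 h and 0 to 2 over time, and lower at 0 to 1, 0 to 2, 0 to 6 and 0 to 0. Counts over all genes were lowest without replicate 2. Unc13b kept its average call under all 11 alternatives (-1.78 to -1.22), Sv2b and Dnm3 under 6 each, with adjusted p up to 0.113 and 0.0982. Syn1, Snap25, Snap91, Dnm1 and Unc13b kept their 9 h calls under all 11, and Syn1 and Unc13b their 26 h calls. Signal over background limits Syn3, and saturation Cplx1 and Stx1a.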

Other observations

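As deviations from the group means, averaged over the 4 groups, 21 of the 33 release genes were lowest in replicate 3 (63.6%, against 25.6% of all genes). Their median deviation there was -0.09, against 0.07 over all genes. Other vesicle genes were at -0.10 there, other SNARE genes at -0.06 and proton pump subunits at -0.05, while other active zone genes were at 0.01 and other endocytosis genes at 0.07. In the same cultures the median deviations were 0.17 for astrocyte, 0.27 for oligodendrocyte and 0.68 for vascular and meningeal markers, and 0.02 for neuronal markers. In replicate 1 cultures the release genes were at 0.04, and astrocyte, oligodendrocyte and vascular and meningeal markers at -0.21, -0.36 and -0.63. All groups hold 1 culture of each number, and the part of other cells in these values was not tested.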
